A study of Mus musculus with 10 samples.

Results

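The comparison of oncogenic Vav1 with GFP in the lymph node rested on 4 of the 10 arrays of the series, 2 of each construct, chosen by their titles. It covered all 19505 genes that a probe set named, each through the probe set with the highest mean. CD4+ T cells carrying a GFP or an oncogenic Vav1 construct were put into immunocompromised mice, per the labels, and tissues were taken after 6 months. The mice were of strain C57BL/10, and the genotype of each sample is labelled wild type with the construct added. The descriptions name animals CTL1 and CTL2 for GFP replicates 1 and 2, and ONCO2 and ONCO3 for oncogenic Vav1 replicates 1 and 2. The other 6 arrays came from spleen, 2 with GFP and 4 with oncogenic Vav1, and CTL2, ONCO2 and ONCO3 also gave spleen arrays. Which mutation of Vav1 was used, what drove its expression, the age of the mice and which cells the hosts lacked are not given in the sources used here. Each value is a log2 RMA value from a single-colour Affymetrix array, so a difference of 1 is a 2-fold difference.

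Vav1 is a signalling protein of blood cells that acts just below the T cell receptor, where it helps assemble the complex that starts calcium signalling. Altered forms of it occur in T cell lymphomas, and the comparison asks which transcripts differ in the node months after such cells were introduced. A lymph node holds T cells in zones built by fibroblastic reticular cells, B cells in follicles and macrophages along its sinuses. It lies in fat tissue and makes no blood cells in the healthy adult, whereas the mouse spleen can make red cells, platelets and neutrophils.

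The tissue labels were checked with genes chosen after the data were seen. Both oncogenic Vav1 lymph node arrays carried transcripts that were high in spleen and near background in the GFP lymph node. Coch, a gene of spleen stroma, lay at 5.24 and 5.95 on the GFP node arrays and at 8.93 and 9.64 on the oncogenic Vav1 node arrays, against 8.91 to 10.0 on the 4 oncogenic Vav1 spleen arrays. Gdpd2, high in GFP spleen, lay at 5.46 and 5.84 with GFP and at 8.00 and 8.05 with oncogenic Vav1. The mesenchymal transcription factor gene Tcf21 lay at 4.76 and 4.65 and at 6.11 and 6.35, and Tlx1, a transcription factor gene needed to form the spleen, at 5.45 and 5.84 and at 6.50 and 6.45. For each of these 4 genes, the node groups did not overlap, and the oncogenic Vav1 node values stood within the range of the oncogenic Vav1 spleen arrays. Other genes chosen for the spleen did not do both. Nkx2-5, a transcription factor gene of spleen mesenchyme, lay at 5.79 and 5.51 and at 5.81 and 5.82, below the 6.11 to 6.24 of the oncogenic Vav1 spleen. Nkx3-2, another, lay at 5.56 and 5.90 and at 6.08 and 5.86, so that the node groups overlapped. Spic was at 8.61 and 8.55 and at 9.41 and 9.35, against 9.40 to 9.59. Among genes chosen for the lymph node, Madcam1 was higher with oncogenic Vav1, at 6.17 and 6.14 and at 8.51 and 6.81, Chst4 was little lower, at 4.96 and 4.72 and at 4.43 and 4.28, and the others were lower. Lyve1, a receptor of lymphatic endothelium, was at 9.08 and 8.56 with GFP and at 6.06 and 6.33 with oncogenic Vav1, against 5.31 to 5.46 in the oncogenic Vav1 spleen. Cd209b, a lectin of sinus and marginal zone macrophages, was at 10.2 and 10.1 and at 6.38 and 7.55, against 5.76 to 6.53 in the oncogenic Vav1 spleen. Glycam1 is a ligand made by the venules through which lymphocytes enter the node. It was at 8.56 and 8.71 with GFP, at 5.61 and 7.28 with oncogenic Vav1, and between 4.20 and 4.68 in the oncogenic Vav1 spleen. Glycam1 and Lyve1 thus kept values above the spleen on both oncogenic Vav1 node arrays, and Cd209b on replicate 2.

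**Figure D1:**
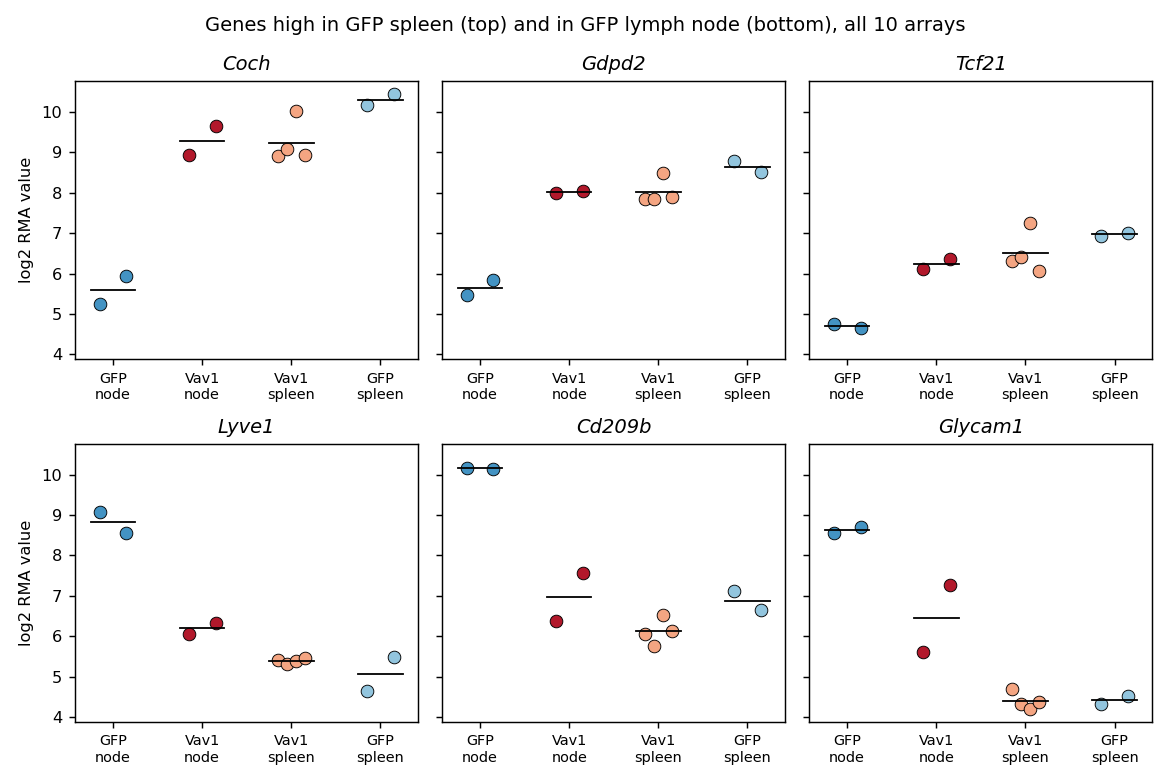
Log2 RMA values of 3 genes that were high in GFP spleen (top) and 3 that were high in GFP lymph node (bottom), 1 point per array, with the group mean as a line. For Coch, Gdpd2 and Tcf21 the oncogenic Vav1 node arrays lie with the spleen arrays. For Glycam1 and Lyve1 they lie between the GFP node and the spleen, as replicate 2 does for Cd209b.

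Across the 13393 genes tested, oncogenic Vav1 node replicate 1 correlated at 0.974 to 0.985 with the oncogenic Vav1 spleen arrays and at 0.888 to 0.892 with the GFP node arrays. Replicate 2 correlated at 0.911 to 0.944 with the oncogenic Vav1 spleen, at 0.910 with replicate 1 and at 0.844 with both GFP node arrays. Between GFP spleen and oncogenic Vav1 spleen arrays the correlation was 0.886 to 0.937. Between oncogenic Vav1 node and spleen, 9 genes differed by limma (1371 at an unadjusted p under 0.05), against 2377 between GFP node and spleen. This fit took no account of the animals that gave both tissues. All 9 were higher in the node, and Car3, Fabp4, Adipoq, Retn, Plin1, Thrsp and Pck1 among them are genes of fat cells. In 1254 genes, the means of the GFP node and of the oncogenic Vav1 spleen were 2-fold or more apart. Replicate 1 was nearer to that spleen for 1235 of them and replicate 2 for 972. The GFP node and that spleen differ in construct as well as tissue, so these counts cannot separate tissue from construct. Replicate 2 was nonetheless 2-fold or more above all 4 oncogenic Vav1 spleen arrays for 247 genes and below all of them for 246, and replicate 1 for 13 and 2. These arrays were thus near the oncogenic Vav1 spleen for some of the genes chosen and not for others. Below, "oncogenic Vav1 node" means the arrays so labelled. The tissue that gave their RNA and the construct cannot be told apart here, and this holds for every change from GFP given below. Both node groups are labelled as CD4+ T cells, yet the B cell gene Cd79a reached at least percentile 95.3 and the myeloid gene Lyz2 at least percentile 98.8 of all probe sets on every node array. The animal name ONCO3 stands on an array of each tissue, and the Y-linked gene Kdm5d read 7.59 on its node array and 4.97 on its spleen array. Counts without both ONCO3 arrays, an alternative chosen after seeing the data, were within 4 of those without oncogenic Vav1 node replicate 2 in each gene list, and that for all genes is given below.

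Vav1 itself lay at 9.52 and 9.69 on the GFP arrays and at 10.2 and 9.27 on the oncogenic Vav1 arrays. The groups overlapped, with replicate 1 above and replicate 2 below both GFP arrays, and the difference of 0.11 (SE 0.24) did not pass (adjusted p = 0.8). Without replicate 2 it was 0.56. Whether the probe set reads the introduced form was not tested.

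By limma with Benjamini-Hochberg adjustment, 2500 of 13393 genes differed between the constructs (18.7%), 1054 higher (7.87%) and 1446 lower (10.8%) with oncogenic Vav1. The groups of arrays did not overlap for any of the 2500, while over all genes 24.2% were higher and 28.8% lower without overlap. At least 2-fold beyond both GFP arrays, replicate 1 had 553 genes higher (4.13%) and 575 lower (4.29%), replicate 2 had 844 (6.3%) and 764 (5.7%), and both arrays together had 287 higher (2.14%) and 387 lower (2.89%). In 2 genes (0.0149%) the arrays went 2-fold opposite ways. Both oncogenic Vav1 arrays stood far apart. Over all 19505 genes, replicate 2 was above replicate 1 for 8618 and below it for 10887. The SD over genes of replicate 2 minus replicate 1 was 0.63, against 0.21 for the GFP arrays, and 1374 genes (10.3%) differed 2-fold or more between them against 4 genes between the GFP arrays. The count of 2500 was 1040 and 1091 without GFP replicates 1 and 2, 4650 without oncogenic Vav1 replicate 1, 2882 without replicate 2, 3371 without both ONCO3 arrays, and 433 from the 4 node arrays alone, of which 26.3% were higher. A group of 2 arrays limits the precision, and whether each animal stands for its group can be read only from the other one. Leaving out a node array leaves 1 in its group, whose spread is then assumed to be that of the other groups. A pass in such a setting does not measure the spread within that group. The fit of the node arrays alone has 2 residual degrees of freedom.

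**Figure D2:**
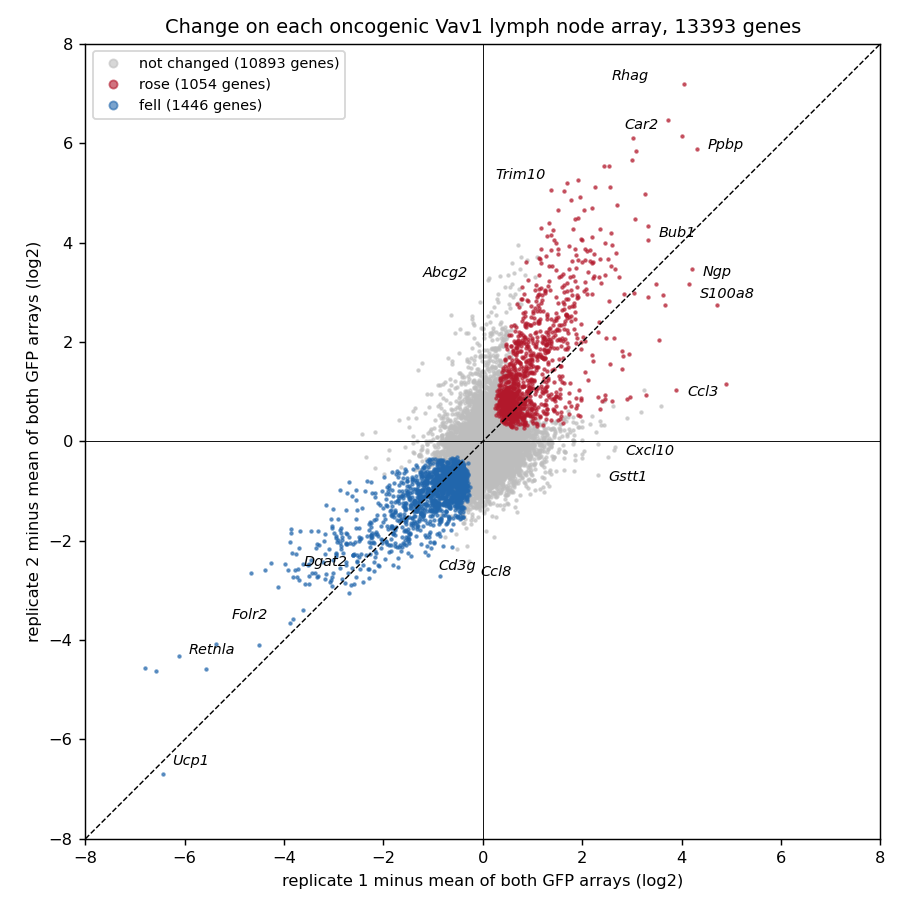
Each of 13393 genes by its log2 difference from the mean of both GFP node arrays, on oncogenic Vav1 replicate 1 (horizontal) and replicate 2 (vertical), with the line of equal change dashed. Red cell genes such as Rhag and Trim10 lie above the line, Ngp and S100a8 below it, and Abcg2, Cxcl10 and Gstt1 differ from GFP mainly on 1 of both arrays.

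Of the lists, that of mitosis had the most complete rise. All 33 measured genes of the mitosis list rose, where 7.87% of all genes did, with a median difference from GFP of 1.90 on replicate 1 and 2.97 on replicate 2 (all genes 0.03 and -0.04). The checkpoint kinase gene Bub1 was at 5.49 and 5.13 with GFP and at 8.64 and 9.64 with oncogenic Vav1, a difference of 3.83 (SE 0.31, adjusted p = 3.7e-05). Mki67, the source of the Ki-67 proliferation antigen, was at 8.95 and 9.03 and at 11.5 and 12.7, which is 8.54-fold. The mitotic kinase Cdk1 was at 5.16 and 5.62 and at 8.06 and 9.19. In all 3 genes, replicate 2 was the higher of both arrays, as it was for each of the 33. Bub1 and Cdk1 were near background with GFP, so the size of their rise depends on the background level. The spindle motor Kif11 (3.01 (SE 0.38)), the kinases Ttk (2.69 (SE 0.23)), Plk1 (2.59 (SE 0.27)) and Aurkb (2.03 (SE 0.21)) and the cyclin Ccnb2 (2.12 (SE 0.27)) rose too. In the DNA replication list 27 of 28 genes rose, with medians of 1.18 and 2.00. Rrm2, a subunit of the enzyme that makes deoxyribonucleotides, was at 7.48 and 7.57 and at 9.68 and 11.4, a difference of 3.00 (SE 0.46, adjusted p = 0.0015). Uhrf1, which helps copy DNA methylation, rose by 2.17 (SE 0.23) and the helicase subunit Mcm6 by 1.80 (SE 0.21). The polymerase subunit gene Pold1 was the exception, at 0.20 (SE 0.16). From the 4 node arrays alone, 14 mitosis genes and 4 replication genes were called higher, and Rrm2 was not (adjusted p = 0.072). The spleen had 32 of the 33 mitosis genes called as higher, where 17.1% of all genes were higher and 9.77% lower.

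The promoters of the 3 mitosis genes with the largest rises that hold both a CHR motif (TTTGAA) and a CCAAT box (CCAAT) are shown because these letters recur in promoters of genes switched on late in the cell cycle. Both motifs were searched on both strands of the 300 bases from 250 before to 50 after the start, and their matches are in capitals.
Cdk1: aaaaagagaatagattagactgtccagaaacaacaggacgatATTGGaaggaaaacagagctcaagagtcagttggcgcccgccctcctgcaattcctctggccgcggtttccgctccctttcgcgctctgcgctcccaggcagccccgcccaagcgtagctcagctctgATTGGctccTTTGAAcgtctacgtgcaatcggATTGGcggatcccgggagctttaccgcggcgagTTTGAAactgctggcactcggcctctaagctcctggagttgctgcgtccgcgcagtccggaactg
Mki67: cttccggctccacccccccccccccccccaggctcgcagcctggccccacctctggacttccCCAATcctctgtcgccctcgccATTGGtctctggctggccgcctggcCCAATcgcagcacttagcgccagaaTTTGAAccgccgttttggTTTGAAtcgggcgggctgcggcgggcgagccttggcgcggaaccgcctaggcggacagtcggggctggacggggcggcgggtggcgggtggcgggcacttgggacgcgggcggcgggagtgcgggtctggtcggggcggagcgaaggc
Kif11: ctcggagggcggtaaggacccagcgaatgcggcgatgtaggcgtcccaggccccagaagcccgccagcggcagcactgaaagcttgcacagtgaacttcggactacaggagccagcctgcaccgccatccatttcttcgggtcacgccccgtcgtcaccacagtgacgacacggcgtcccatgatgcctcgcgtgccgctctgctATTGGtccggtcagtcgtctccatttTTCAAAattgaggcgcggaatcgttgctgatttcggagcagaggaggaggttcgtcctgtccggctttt
They are RefSeq sequences of build GRCm38.p6, read along the gene: Cdk1 at chr10:69352863-69353162 on the minus strand, Mki67 at chr7:135716330-135716629 on the minus strand and Kif11 at chr19:37376132-37376431 on the plus strand. Of 30 promoters that matched 28 of the 34 listed mitosis genes, 23 (76.7%) held the CHR motif, against 17.9% of all 32851 promoters. The CCAAT box was in 24 of the 30 (80.0%), against 37.4% of all. In the replication list, an E2F motif (TTCCCGC) was in 14 of 30 promoters of 25 matched genes (46.7%), against 4.60% of all. These counts describe the promoters and were not tested, and a match is no proof of a site.

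Red cell genes held most of the largest rises, and replicate 2 was far above replicate 1. Of 19 tested genes for the red cell membrane and its transport, 13 rose, where 7.87% of all genes did. The medians were 1.74 on replicate 1 and 4.05 on replicate 2. Rhag, part of the Rh complex of the red cell membrane, lay at 4.22 and 4.47 on the GFP arrays and at 8.40 and 11.5 on the oncogenic Vav1 arrays, a difference of 5.62 (SE 0.99, adjusted p = 0.0032). Both oncogenic Vav1 values were above both GFP values, and they were themselves 3.14 apart. The carbonic anhydrase gene Car2 was at 6.81 and 7.16 and at 11.0 and 13.1, 33.8-fold higher, and Car1 at 5.61 and 5.34 and at 9.20 and 11.9. Slc4a1, the anion exchanger called band 3, was at 7.45 and 7.58 and at 10.6 and 12.0, which gives 3.77 (SE 0.55, adjusted p = 0.0011). The membrane skeleton genes Epb42 (4.57 (SE 0.89)) and Sptb (4.34 (SE 0.82)) rose as well. Rhag, Car1, Epb42 and Sptb were near background in the GFP node, meaning that their group mean lay below the 40th percentile of each array, so the size of their rise depends on the background level. Of the membrane list, 2 genes were called from the 4 node arrays alone. Rhag, Car1, Epb42 and Sptb did not pass there (adjusted p between 0.0655 and 0.0995).

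In the list of haem synthesis and iron uptake, 6 of 17 rose, where 7.87% of all genes did. The medians were 0.35 and 1.58, and replicate 2 was above replicate 1 for each of 17. Alas2, the first enzyme of haem synthesis in red cells, was at 6.64 and 6.56 with GFP and at 9.30 and 11.4 with oncogenic Vav1, a difference of 3.73 (SE 0.63, adjusted p = 0.0024). Cpox, a later enzyme, was at 7.60 and 7.67 and at 9.60 and 11.7, but did not pass without GFP replicate 1 (2.98, adjusted p = 0.053). Fech, which inserts the iron, was at 8.12 and 7.75 and at 8.56 and 11.3, with a difference of 2.01 (SE 0.76) that did not pass (adjusted p = 0.095). The difference was 3.40 without replicate 1, and it passed with the intronic controls as covariate (adjusted p = 0.045). Among red cell factors 10 of 16 rose, with medians of 0.80 and 2.61. E2f2, active in the last divisions of red cell precursors, was at 6.86 and 7.26 and at 9.22 and 10.7. Gata1, the master regulator of red cells and platelets, was at 6.94 and 6.96 and at 7.62 and 9.24, and its difference of 1.48 (SE 0.46, adjusted p = 0.047) lost the call without any 1 of 8 arrays, at 0.67 (adjusted p = 0.17) without oncogenic Vav1 replicate 2. Klf1, its partner at the globin genes, was at 6.16 and 6.51 and at 7.40 and 9.15, and did not pass without either GFP array (adjusted p = 0.16 and 0.10) or without replicate 2 (1.07, adjusted p = 0.084). The 4 node arrays alone called 0 of the factors and 0 of the haem list.

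The 4 red cell genes with the largest rises among those whose promoter holds the GATA motif (AGATAA) are printed because Gata1 binds such letters, and their matches are in capitals.
Epb42: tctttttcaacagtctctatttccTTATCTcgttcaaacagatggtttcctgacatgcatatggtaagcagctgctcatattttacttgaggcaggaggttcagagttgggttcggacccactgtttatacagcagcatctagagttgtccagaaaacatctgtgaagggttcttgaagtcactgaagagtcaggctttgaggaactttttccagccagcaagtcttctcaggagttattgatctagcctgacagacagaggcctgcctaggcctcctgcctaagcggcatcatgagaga
Hemgn: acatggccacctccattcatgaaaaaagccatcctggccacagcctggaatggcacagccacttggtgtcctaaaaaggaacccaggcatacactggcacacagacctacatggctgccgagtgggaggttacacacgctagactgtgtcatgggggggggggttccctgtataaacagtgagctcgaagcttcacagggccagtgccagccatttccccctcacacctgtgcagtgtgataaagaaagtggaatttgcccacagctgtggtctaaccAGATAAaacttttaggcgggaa
Kel: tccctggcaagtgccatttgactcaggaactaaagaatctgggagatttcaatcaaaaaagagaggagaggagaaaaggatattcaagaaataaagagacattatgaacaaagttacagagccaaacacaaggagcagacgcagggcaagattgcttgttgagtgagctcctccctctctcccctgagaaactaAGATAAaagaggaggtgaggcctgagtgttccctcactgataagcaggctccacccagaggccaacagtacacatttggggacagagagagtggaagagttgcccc
Alas2: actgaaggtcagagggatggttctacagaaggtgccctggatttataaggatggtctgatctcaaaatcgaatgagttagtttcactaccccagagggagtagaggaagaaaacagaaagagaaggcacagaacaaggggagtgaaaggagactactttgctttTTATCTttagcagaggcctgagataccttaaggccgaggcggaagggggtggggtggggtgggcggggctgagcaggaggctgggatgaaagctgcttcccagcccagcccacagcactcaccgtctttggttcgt
The sequences are again RefSeq's of GRCm38.p6 along the gene: Epb42 at chr2:121036828-121037127, Hemgn at chr4:46404134-46404433 and Kel at chr6:41704276-41704575, all on the minus strand, and Alas2 at chrX:150547167-150547466 on the plus strand. The match in Epb42 began 226 bases before the start and that in Kel 56 bases before it. In Alas2 it began 86 bases before the start, and in Hemgn it lay after it. The motif was in 5 of 18 promoters of the membrane list (27.8%), 3 of 21 of the haem list (14.3%), 5 of 19 of the factor list (26.3%) and 5 of 15 of the platelet list (33.3%), against 11.2% of all promoters. Hemgn, a nuclear protein of red cell precursors, was at 5.91 and 5.76 with GFP and at 8.37 and 11.4 with oncogenic Vav1. Kel, a blood group protein, was at 4.39 and 5.00, near background, and at 7.14 and 10.2. Hemgn lost its call without either GFP array (adjusted p = 0.058 and 0.065) and Kel without GFP replicate 1 (adjusted p = 0.077).

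Platelet genes rose with 9 of 16 tested, against 7.87% of all genes, with medians of 0.61 and 1.53. Ppbp, the chemokine precursor stored in platelets, was at 4.95 and 4.76 with GFP and at 9.16 and 10.8 with oncogenic Vav1, 34.3-fold higher (adjusted p = 6.1e-05), and near background with GFP. The platelet tubulin gene Tubb1 was at 6.01 and 6.08 and at 7.52 and 8.53, and Gp5, part of the receptor for von Willebrand factor, at 4.98 and 5.05 and at 6.73 and 6.91. Each of the 3 was higher on both oncogenic Vav1 arrays than on either GFP array, and Gp5 too was near background with GFP. Itga2b, the integrin chain of platelets, was at 7.78 and 7.64 and at 7.96 and 8.17, a difference of 0.35 (SE 0.21) that did not pass (adjusted p = 0.28). On the node arrays alone, 3 platelet genes were called.

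Neutrophil granule genes also rose on both arrays, with replicate 1 the higher of them for 15 of 20 genes in the table. Of 19 tested, 12 rose, against 7.87% of all genes, and the medians were 1.84 and 1.38. Ngp, a granule protein of immature neutrophils, was at 6.92 and 6.69 and at 11.0 and 10.3, a difference of 3.85 (SE 0.21, adjusted p = 4e-06). The alarmin genes S100a8 and S100a9 were at 6.90 and 7.21 and at 7.28 and 6.94 with GFP, and at 11.2 and 10.2 and at 10.6 and 10.3 with oncogenic Vav1. In each of the 3 genes, the lowest oncogenic Vav1 value stood at least 2.99 above the highest GFP value. Lcn2, which binds bacterial iron carriers, was 8.08-fold higher and Chil3 7.47-fold. Mpo, the peroxidase of early granules, was at 4.46 and 5.37, near background, and at 8.47 and 6.96. Cxcr2, the chemokine receptor of mature neutrophils, was at 7.89 and 7.98 and at 7.73 and 7.92, a difference of -0.11 (SE 0.25) that did not pass (adjusted p = 0.81).

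Of the lists, that of white fat cells had the most complete fall. Of 23 genes of the white fat list, 22 fell, where 10.8% of all genes did, with medians of -3.10 and -2.26. Adipoq, the fat hormone adiponectin, was at 12.3 and 12.3 with GFP and at 8.54 and 10.0 with oncogenic Vav1, a difference of -3.01 (SE 0.47, adjusted p = 0.0016). The lipid droplet protein gene Plin1 was at 9.71 and 9.98 and at 6.32 and 7.37, and Lep, the hormone leptin, at 8.27 and 8.51 and at 5.29 and 6.23. Replicate 2 was above replicate 1 for 22 of the 23. Judged by the 4 node arrays alone, 16 of the list fell, and Adipoq did not pass (adjusted p = 0.058). Pnpla2, the lipase that starts fat breakdown, was 6.04-fold lower, and Pparg, the regulator of fat cell identity, 3.40-fold lower. Slc2a4, the glucose transporter that insulin controls, was the member that did not pass, at -0.72 (SE 0.23), and it was at -1.04 without replicate 2. In the list of brown fat and heat production 12 of 16 fell. Ucp1, which makes heat in brown fat mitochondria, showed the largest fall of the ranking, from 10.3 and 10.5 to 3.94 and 3.69, a difference of -6.56 (SE 0.18, adjusted p = 2.8e-08), and was near background with oncogenic Vav1. Cox8b and Cidea, both of brown fat, changed by -3.77 and -3.51. In the GFP spleen the mean of Ucp1 was 3.97 and that of Adipoq 6.70, both lower than in the GFP node, while Pnpla2 was at 8.41 and 8.16 there.

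Other large falls were of genes outside the lists. Retnla, made by alternatively activated macrophages and fat tissue, was at 9.39 and 9.50 with GFP and at 3.88 and 4.87 with oncogenic Vav1, a difference of -5.07 (SE 0.28, adjusted p = 4e-06). The lipid carrier gene Apod was at 8.95 and 9.18 and at 4.55 and 4.97, and Folr2, a folate receptor of resident macrophages, at 9.51 and 9.34 and at 5.61 and 5.84. Retnla and Apod were near background with oncogenic Vav1. The fat cell genes Aoc3 and Lgals12 changed by -3.53 and -3.49 and Cdo1, an enzyme of cysteine breakdown, by -3.66. Mup2, Mup9, Mup19 and Mup22 changed by -4.73 to -5.68, but these major urinary protein genes are near-identical copies, so which of them was read is uncertain.

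Stromal genes fell. In the fibroblastic reticular list 10 of 22 genes fell, with medians of -0.46 and -1.06. In the collagen and matrix list 13 of 22 fell, where 10.8% of all genes did. Col3a1, a chain of fibrillar collagen, was at 9.68 and 9.80 with GFP and at 7.05 and 6.69 with oncogenic Vav1, a difference of -2.87 (SE 0.18, adjusted p = 8.4e-06). Postn, a matrix protein, was at 8.41 and 8.69 and at 5.59 and 6.28, and the collagen-binding Lum at 7.50 and 7.38 and at 4.37 and 4.61, near background with oncogenic Vav1. The node groups did not overlap for any of the 3. Ccl21a, the chemokine that draws T cells and dendritic cells into the node, was at 12.0 and 12.0 and at 9.44 and 9.76, 5.38-fold lower. Its partner Ccl19 was at 9.25 and 9.22 and at 8.90 and 7.49, a difference of -1.04 (SE 0.35) that did not pass (adjusted p = 0.061). The difference was -1.75 without replicate 1, and it passed with the intronic controls as covariate (adjusted p = 0.018). Il7, the survival factor of T cells, was 2.57-fold lower. The count from the node arrays alone was 8 for reticular genes and 5 for collagen and matrix genes. Among blood endothelium genes 9 of 18 fell, with the adhesion molecules Cdh5 at -1.42 (SE 0.17) and Pecam1 at -1.21 (SE 0.15). Madcam1, an address molecule of venules and of spleen sinus lining, went up, at 6.17 and 6.14 with GFP and 8.51 and 6.81 with oncogenic Vav1, but did not pass without either GFP array (adjusted p = 0.14 for each), either GFP spleen array or oncogenic Vav1 spleen replicate 4 (adjusted p between 0.052 and 0.053).

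Among macrophage and monocyte genes 4 rose and 3 fell of 20, where 7.87% of all genes rose and 10.8% fell. The sinus macrophage genes Siglec1, a sialic acid receptor, and Timd4, a receptor for dying cells, fell from 8.72 and 8.76 to 6.63 and 6.84 and from 9.75 and 9.41 to 7.78 and 7.74. The scavenger receptor gene Marco was at 9.42 and 9.24 and at 7.45 and 8.45, and did not pass without either GFP array (adjusted p = 0.13 and 0.093). Fcgr4, an activating receptor for IgG, rose from 5.31 and 6.23 to 9.39 and 8.71, a difference of 3.28 (SE 0.29, adjusted p = 6.1e-05). Spic, the regulator of red pulp macrophages, was at 8.61 and 8.55 and at 9.41 and 9.35, and Mertk, which takes up dying cells, at 7.23 and 7.09 and at 8.55 and 8.02. In the dendritic cell list 8 of 16 fell and 1 rose. Ccl22, made by migrating dendritic cells, was at 8.96 and 9.32 and at 6.65 and 6.81, a difference of -2.41 (SE 0.19, adjusted p = 3.5e-05), and the lectin gene Cd209a was 3.41-fold lower. With the node arrays alone, 1 macrophage gene rose and 2 fell, and 5 dendritic cell genes fell.

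T cell genes fell on both arrays, and further on replicate 2. Of 17 genes shared by T cells, 9 fell, where 10.8% of all genes did. The medians were -0.43 on replicate 1 and -1.52 on replicate 2. Cd3g, a chain of the T cell receptor complex, was at 10.5 and 10.5 with GFP and at 9.41 and 8.22 with oncogenic Vav1, a difference of -1.70 (SE 0.31, adjusted p = 0.0038). Cd3e, another chain, was at 10.6 and 10.6 and at 10.3 and 8.50, with differences from the GFP mean of -0.32 and -2.10, and it did not pass (adjusted p = 0.067). It passed when arrays were weighted (adjusted p = 0.028) and when the intronic controls were a covariate (adjusted p = 0.010). Cd4, the coreceptor of the transferred cells, was at 9.52 and 9.62 and at 9.14 and 8.02, and its fall of -0.99 (SE 0.27) did not pass without either GFP array (adjusted p = 0.12 and 0.16), either GFP spleen array or oncogenic Vav1 spleen replicate 4 (adjusted p = 0.051 for each). Trat1, an adaptor of the receptor complex, was 4.95-fold lower and Bcl11b, which keeps T cell identity, 2.89-fold lower. In bulk RNA such as this, fewer T cells and less RNA per T cell cannot be told apart. The count of 9 was 1 from the 4 node arrays alone, where Cd3g did not pass (adjusted p = 0.12).

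Genes of naive T cells fell with 10 of 13, against 10.8% of all genes, with medians of -0.92 and -1.33. Dapl1 was at 9.47 and 9.71 with GFP and at 6.27 and 6.88 with oncogenic Vav1, a difference of -3.01 (SE 0.32, adjusted p = 0.00018). The transcription factor Lef1 was at 9.78 and 9.81 and at 7.20 and 6.93, and Satb1, an organiser of chromatin in T cells, at 10.3 and 10.1 and at 8.66 and 8.29. Il7r, the receptor for the survival factor above, was 2.44-fold lower, and Ccr7, the receptor for Ccl19 and Ccl21a, 2.30-fold. The count was 4 from the node arrays alone. Of the CD8 and NK cell list 6 of 14 fell, with Cd8b1, a coreceptor chain of killer T cells, at 10.9 and 10.8 and at 9.24 and 8.80. Ncr1, an activating receptor of NK cells, was at 6.98 and 7.25 and at 4.87 and 5.17, near background with oncogenic Vav1. Of the 14, 3 fell when the node arrays were fitted alone.

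Downstream of the receptor, 3 of 26 genes of the list of T cell receptor and Vav1 signalling fell, a share close to the 10.8% of all genes, and 25 of 26 were lower on replicate 2 than on replicate 1. The kinase Prkcq was at 10.6 and 10.5 and at 9.21 and 8.83, a difference of -1.53 (SE 0.22, adjusted p = 0.00094). Plcg1, the phospholipase that Vav1 helps activate, was at 9.63 and 9.50 and at 9.12 and 8.27 (-0.87 (SE 0.26)), and the ubiquitin ligase gene Cblb, a brake on Vav1, at 10.0 and 10.0 and at 9.60 and 8.90 (-0.79 (SE 0.22)). Plcg1 and Cblb each lost the call without either GFP array (adjusted p between 0.13 and 0.20) and without oncogenic Vav1 replicate 2 (adjusted p = 0.12 and 0.090). Since the spleen arrays enter the spread, both also lost it when either GFP spleen array, or the first or the fourth oncogenic Vav1 spleen array, was left out, and Plcg1 when the second was. The median of the list was 0.02 on replicate 1 and -0.60 on replicate 2. When the node arrays were fitted alone, 1 of its genes fell and 0 rose. Among immediate early genes, which follow receptor signals within minutes, 7 of 20 fell and 2 rose, against 10.8% and 7.87% of all genes. Fos was at 7.49 and 7.83 and at 6.10 and 5.89, and Egr1 at 9.08 and 9.11 and at 8.00 and 7.17. Of the 20, 1 fell and 0 rose when the node arrays were fitted alone. Myc rose by 0.56 (SE 0.13), but did not pass without either GFP array (adjusted p = 0.086 and 0.11).

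Effector and inhibitory genes set the oncogenic Vav1 arrays apart, and so did other lists. Replicate 2 was below replicate 1 for 18 of 19 Th1 and cytotoxic genes and for 14 of 14 inhibitory receptor genes. The same held for 10887 of all 19505 genes, for 16 of 17 general T cell genes and for 18 of 19 T follicular helper genes. The median of the inhibitory receptors was 1.17 on replicate 1 and -0.01 on replicate 2, and limma called none higher. At an unadjusted p under 0.05, 5 of the 14 were higher and 1 lower, where 4181 of all 13393 genes passed in either direction. Pdcd1, which encodes PD-1, was at 6.52 and 6.58 with GFP and at 8.70 and 6.90 with oncogenic Vav1, and Lag3 at 6.23 and 6.22 and at 8.61 and 6.55. Tigit was at 5.93 and 6.29 and at 8.05 and 6.40, and Havcr2, which encodes TIM-3, at 6.56 and 6.72 and at 7.94 and 6.77. On replicate 1 each of the 4 was more than 2-fold above both GFP arrays, and on replicate 2 each was less than 2-fold above them. Without replicate 2, the difference from GFP was 2.15 for Pdcd1, 2.38 for Lag3, 1.94 for Tigit and 1.30 for Havcr2. Fitted alone, the node arrays called 0 of the 14. Ctla4 was at 7.67 and 7.21 and at 8.01 and 7.04 and did not pass (adjusted p = 0.88). In the Th1 list 5 rose and 3 fell of 19, against 7.87% and 10.8% of all genes, with medians of 0.89 and -0.08. Gzmk, a granzyme of memory T cells, was at 4.88 and 6.15 and at 10.2 and 8.27, a difference of 3.73 (SE 0.54, adjusted p = 0.0011) that both arrays shared. Ifng, the signature cytokine of Th1 cells, was at 5.87 and 5.24 and at 8.85 and 6.49, and Gzmb at 6.16 and 6.57 and at 9.33 and 7.25. Both lost the call without either GFP array (adjusted p between 0.073 and 0.17). Gzma fell, from 8.37 and 8.32 to 6.81 and 6.80, a call that was lost without GFP replicate 1 (adjusted p = 0.055). Fitted alone, the node arrays called 0 of the Th1 genes higher and 1 lower, and Gzmk did not pass (adjusted p = 0.084). Gzmk and Ifng were near background with GFP.

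**Figure D3:**
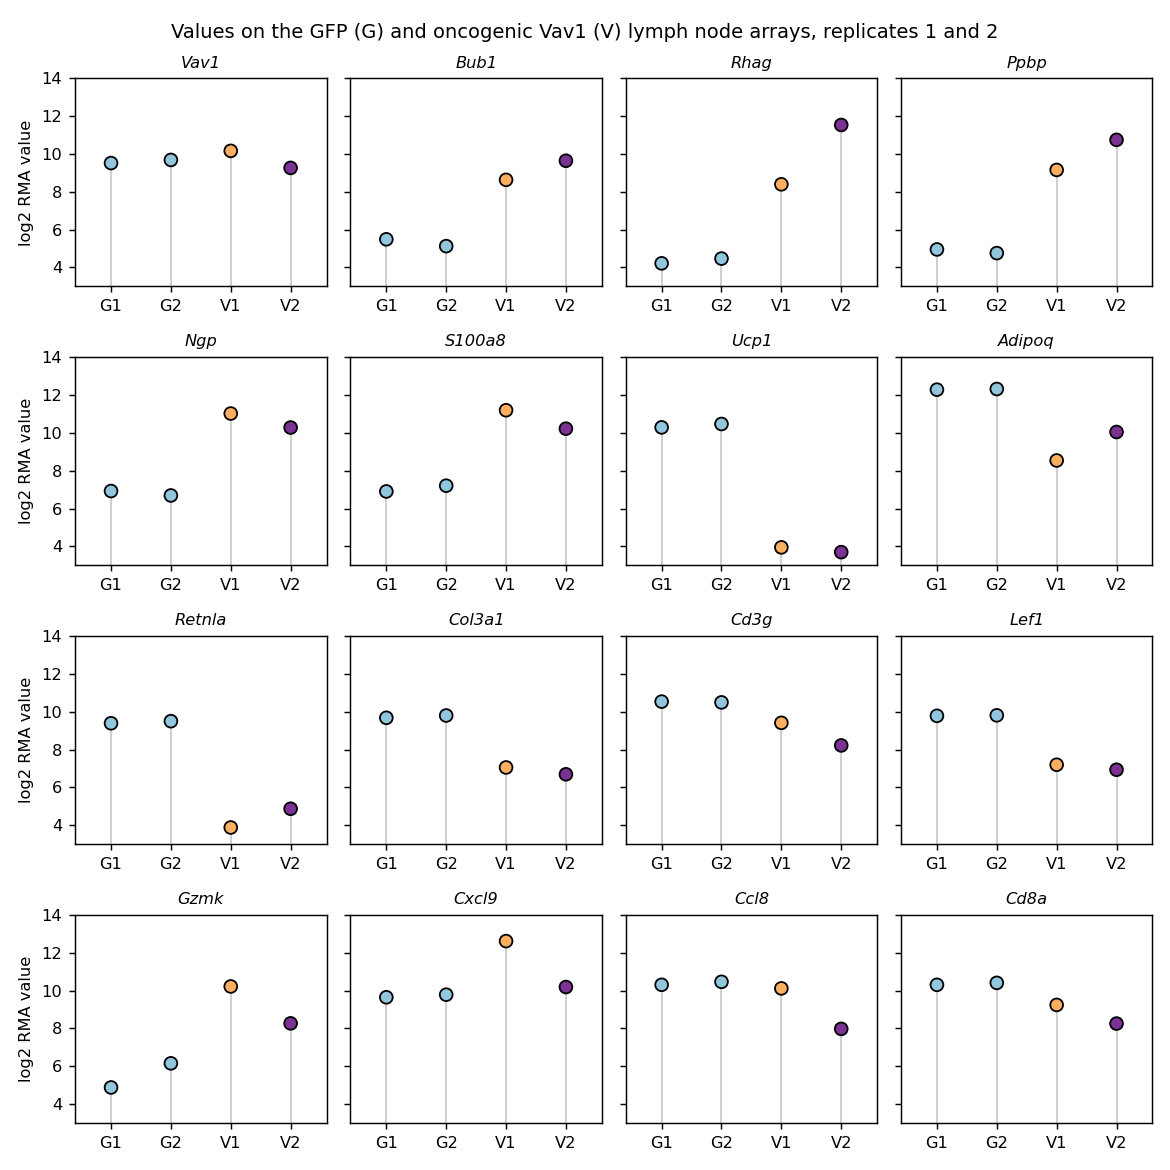
Log2 RMA values of 16 genes on the 4 node arrays, G1 and G2 for GFP and V1 and V2 for oncogenic Vav1. Bub1, Ngp and Gzmk are higher and Ucp1, Retnla and Lef1 lower on both V arrays, while Cxcl9 is high on V1 and Ccl8 low on V2.

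Of 17 B cell genes 3 fell, where 10.8% of all genes did, with medians of 0.11 and -0.51. Ms4a1, which encodes CD20, was at 9.37 and 9.27 with GFP and at 9.49 and 9.36 with oncogenic Vav1, and Cr2, the complement receptor of follicular and marginal zone B cells, at 9.41 and 9.52 and at 9.29 and 9.46. Fcer2a, the low-affinity IgE receptor, fell from 9.21 and 9.20 to 7.64 and 7.89. Of the 17, 1 was called lower from the node arrays alone. In the plasma cell list 7 of 14 rose, against 7.87% of all genes. Jchain, which joins IgA and IgM chains, was at 8.61 and 8.89 and at 10.5 and 11.6, a difference of 2.29 (SE 0.30, adjusted p = 0.00055), and Xbp1, the regulator of secretory cells, at 9.62 and 9.64 and at 10.6 and 10.3. The count was 1 from the 4 node arrays alone, where Jchain did not pass (adjusted p = 0.0655).

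Interferon genes and inflammatory chemokines differed between both oncogenic Vav1 arrays. Of 24 genes that respond to interferon 5 rose, against 7.87% of all genes, with medians of 0.92 and 0.19. Cxcl9, which draws activated T cells, was at 9.65 and 9.78 with GFP and at 12.6 and 10.2 with oncogenic Vav1, and its difference of 1.69 (SE 0.56) did not pass (adjusted p = 0.062). Its relative Cxcl10 was at 7.49 and 7.63 and at 10.2 and 7.39. Without replicate 2, the difference was 2.90 for Cxcl9 and 2.65 for Cxcl10. Rsad2, an antiviral enzyme, went the other way, at 7.06 and 6.24 and at 8.43 and 11.5, so that replicate 2 was 3.09 above replicate 1. Its call (3.32 (SE 0.89)) was lost without either GFP array (adjusted p = 0.085 and 0.17) and without replicate 2 (1.78, adjusted p = 0.062). When the node arrays were fitted alone, 0 interferon genes rose. None of 16 antigen presentation genes passed by limma, nor at an unadjusted p under 0.05 (0 of 16), where 4181 of all 13393 genes did. All 16 were lower on replicate 2 than on replicate 1, with medians of 0.53 and -0.45.

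In the inflammatory chemokine list 2 rose and 3 fell of 17, where 7.87% of all genes rose and 10.8% fell. Ccl3, made by activated T cells and macrophages, was at 6.21 and 6.23 with GFP and at 10.1 and 7.25 with oncogenic Vav1, a difference of 2.46 (SE 0.65) that was lost without either GFP array (adjusted p = 0.12 for each). Ccl5, another product of activated T cells, was at 11.3 and 11.3 and at 12.0 and 10.5, above both GFP arrays on replicate 1 and below both on replicate 2. Its difference from GFP was 0.74 without replicate 2 and -0.77 without replicate 1. Ccl8, made by resident macrophages, was at 10.3 and 10.5 and at 10.1 and 7.97, and did not pass. Its difference was -2.41 without replicate 1. Of the list, 1 rose and 0 fell when the node arrays were fitted alone.

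Genes of metabolism split by pathway. In the list of fatty acid oxidation and respiration 18 of 23 fell, with a median over both arrays of -0.90. Acaa2, the last step of fatty acid oxidation, was at 10.9 and 10.9 with GFP and at 8.19 and 8.96 with oncogenic Vav1, a difference of -2.30 (SE 0.25, adjusted p = 0.00017), and Echs1, an earlier step, at 10.1 and 10.1 and at 8.47 and 8.19. Sdhb, a subunit of respiratory complex II, was at 10.5 and 10.4 and at 9.60 and 9.64. These falls went along with those of the fat cell genes, and their share in them was not tested. Of 16 glycolysis genes 2 rose and 1 fell, against 7.87% and 10.8% of all genes, with medians of 0.62 on replicate 1 and -0.53 on replicate 2. Fitted alone, the node arrays called 0 of them higher and 0 lower. Ldha, which makes lactate, was at 11.2 and 11.2 and at 11.2 and 10.7, with a difference of -0.48 without replicate 1. Pdk1, which keeps pyruvate out of mitochondria, fell from 9.59 and 9.67 to 8.41 and 8.65.

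**Figure D4:**
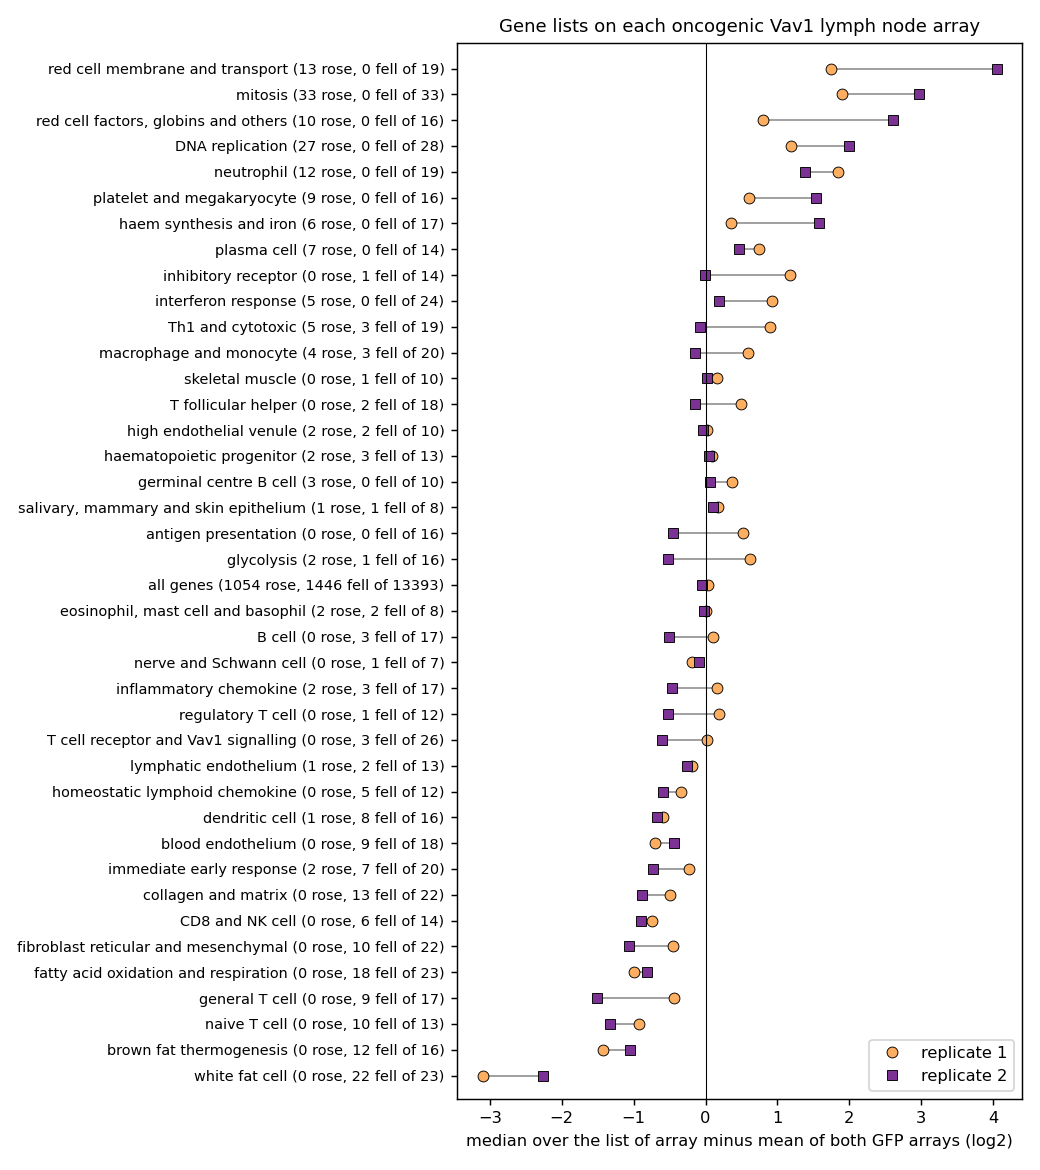
Median over each gene list of the log2 difference from the mean of both GFP node arrays, as a circle for oncogenic Vav1 replicate 1 and a square for replicate 2, with the number of genes that rose or fell of those tested. Red cell lists lie far to the right on replicate 2, mitosis on both arrays, and white fat lies far to the left on both arrays, at -3.10 and -2.26.

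Genes that differed most between both oncogenic Vav1 arrays are given as a description, without a test. Higher on replicate 2 by over 3 were Trim10, at 7.37 and 10.9, Tspan8, at 5.80 and 9.20, Sox6, which silences embryonic globin, at 6.92 and 10.2, and the transporter gene Abcg2, at 8.33 and 11.5. For Abcg2, replicate 1 lay level with the higher of the GFP values of 8.33 and 8.14. Higher on replicate 1 were Gstt1, a glutathione transferase, at 10.2 and 7.17, the proton pump subunit gene Atp6v0d2, at 8.45 and 5.56, and the macrophage surface gene Slamf8, at 8.32 and 5.49. For Gstt1 and Slamf8, replicate 2 lay below both GFP values of 7.88 and 7.83 and 5.85 and 5.77. At least 2-fold differences counted 714 genes higher on replicate 2 and 660 higher on replicate 1. The intronic control probe sets had medians of 5.27 and 5.57 on these arrays, against 5.46 and 5.38 with GFP.

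The change in the node was set against that in the spleen by an interaction. It took the animal as a random block, so its values can differ slightly from plain differences of the changes given. The change was higher in the node for 125 genes (0.933%) and lower for 952 (7.11%), or for 332 and 852 after quantile normalization over genes. A difference of changes holds the difference between the GFP tissues and that between the oncogenic Vav1 arrays of both tissues, which was small for replicate 1 and larger for replicate 2, and group levels are given for that reason. Ppbp changed by 5.10 in the node and by 0.21 in the spleen, with spleen means of 9.36 in the GFP spleen and 9.57 in the oncogenic Vav1 spleen, a difference of changes of 4.94 (SE 0.63, adjusted p = 0.0011). Coch rose in the node by 3.69 and stood at 10.3 in the GFP spleen and 9.23 in the oncogenic Vav1 spleen, which gives 4.82 (SE 0.54, adjusted p = 0.00058). Ccl8 changed by -1.34 in the node and by 5.55 in the spleen, a difference of -6.91 (SE 0.75, adjusted p = 0.00051). Its oncogenic Vav1 level was 10.2 in the spleen and lay at 10.1 and 7.97 in the node, while the GFP level was 4.64 in the spleen against 10.3 and 10.5 in the node. Ccl12, a related chemokine, had the same order of levels, with 3.78 in the GFP spleen and 8.04 and 8.24 in the GFP node, and differed by -5.25 (SE 0.82, adjusted p = 0.0036). For 22 of 23 genes of fatty acid oxidation and respiration and for 17 of 23 white fat genes the change was lower in the node. By limma, none of the 33 mitosis genes and none of 19 neutrophil genes differed in its change, with 4 and 3 at an unadjusted p under 0.05. The count of 1077 was 612 and 634 without GFP spleen replicates 1 and 2, 704 without oncogenic Vav1 spleen replicate 1, 384 and 497 without GFP node replicates 1 and 2, 4201 and 2204 without oncogenic Vav1 node replicates 1 and 2, and 2726 without both ONCO3 arrays.

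**Figure D5:**
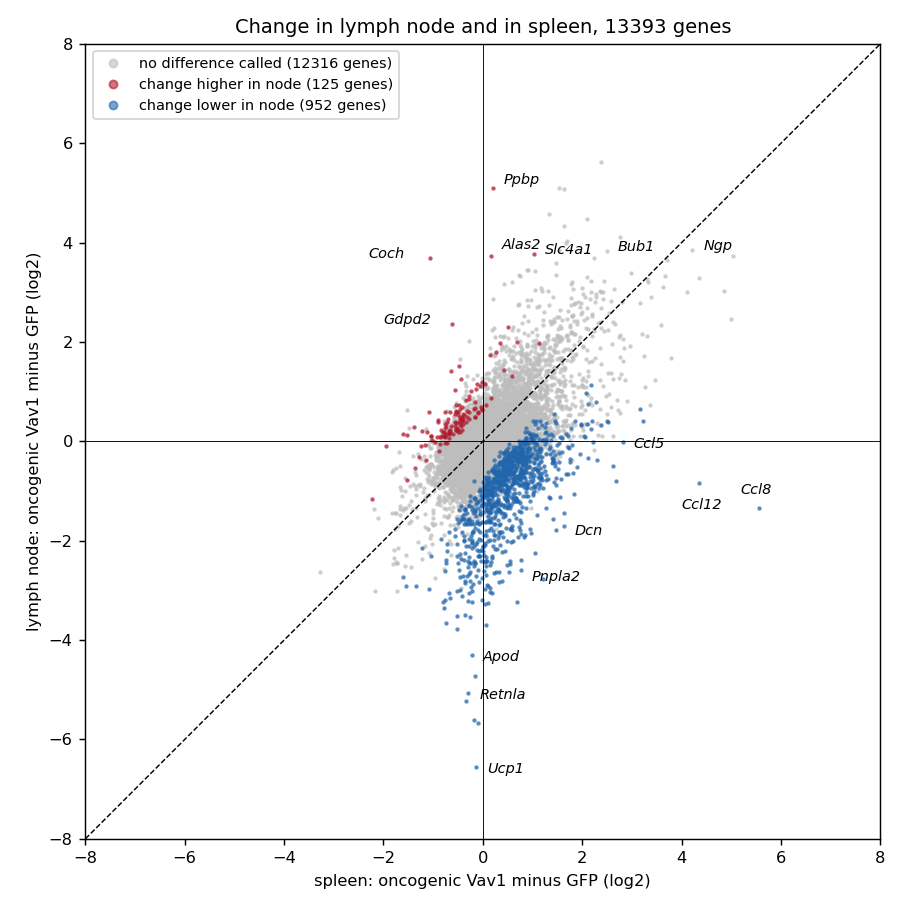
Log2 difference between oncogenic Vav1 and GFP in the spleen (horizontal) and in the node (vertical) for 13393 genes, with the line of equal change dashed. The 952 genes whose change was lower in the node include Ucp1, Retnla and Ccl8, and the 125 with a higher change include Ppbp, Coch and Alas2.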

How the data were processed

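Total RNA of 10 samples was labelled with biotin and read on single-colour Affymetrix arrays, 1 per sample. The authors deposited log2 values, and the submitters' processing notes name RMA and R 3.6.3. The annotation and any filter are not given in the sources used here. No further normalization was applied to these values, which ran from 2.42 to 13.9. Of 29129 probe sets 19572 had 1 gene symbol, each matched to RefSeq by Entrez ID, 2634 had none and 6923 were controls. For 55 genes with several probe sets that with the highest mean stood for the gene. A gene was tested (13393 of 19505) if above the 40th percentile of the probe sets of its array on at least 2 arrays. RMA equalises the distribution of values between arrays, so a change in total RNA per cell does not show.

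limma 3.58.1 with statmod 1.5.0 in R 4.3.3 fitted the 4 groups of tissue and construct over all 10 arrays, since a group of 2 arrays gives little on its spread (6 residual degrees of freedom), with eBayes, a variance trend and a Benjamini-Hochberg adjusted p under 0.05, two-sided. The interaction took the animal as a random block (correlation -0.11). Both fits were run on simulated data with known changes. There each gene varied alike on all arrays, so the runs do not cover the wider spread of the oncogenic Vav1 node arrays. The labels name separate animals, 7 in all. Arrays that share a replicate number come from animals with different names and were not read as pairs. The comparison of tissues within a construct and the tissue genes were chosen after seeing the data.

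The gene lists, the motifs, the samples compared and the rule for named genes were chosen with earlier results of these data known. The rule took Vav1, the 15 genes each way with the largest change among those past the threshold whose groups did not overlap, the 10 each way with the largest gap between the groups, the 8 each way that differed most between both oncogenic Vav1 arrays, the 5 each way with the largest interaction, and, within a list, its first 4 members and the 6 of smallest p. Predicted genes, receptor segments, small RNA genes and Y-linked genes were left out of the rankings. Medians of lists are over all members in the table, and counts over those tested.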

Additional observations from a re-analysis of the deposited data

Results flagged for a closer look

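Results are listed here because the change from GFP to oncogenic Vav1 in the node differed from that in the spleen by the interaction test of limma (Benjamini-Hochberg adjusted p under 0.05). Each value is the log2 change in the node minus that in the spleen, fitted with the animal as a random block. It can differ slightly from the plain difference of the changes. They hold both the difference between the GFP tissues and that of the oncogenic Vav1 node arrays from the oncogenic Vav1 spleen arrays. The change was lower in the node than in the spleen for genes of fat -6.44 for Ucp1, -3.36 for Pnpla2, -3.28 for Aoc3, -3.25 for Cox8b, -3.12 for Lgals12, -2.99 for Cidea, -2.96 for Cdo1, -2.47 for Plin1, -2.39 for Lep and -2.31 for Pparg. The major urinary protein genes, whose copies cannot be told apart, had -5.58 for Mup9, -5.44 for Mup19, -4.89 for Mup22 and -4.56 for Mup2. Genes of resident macrophages and of fat-associated tissue had -4.79 for Retnla, -4.07 for Apod, -3.77 for Folr2, -2.44 for Cd209b and -1.16 for Timd4. Among chemokine and dendritic cell genes the difference was -6.91 for Ccl8, -5.25 for Ccl12, -2.83 for Ccl5, -2.44 for Ccl22, -1.79 for Ccl19 and -3.27 for Fscn1. In stroma and endothelium it was -3.34 for Dcn, -3.10 for Lum, -2.96 for Dpt, -2.65 for Col3a1, -1.85 for Postn, -2.94 for Lyve1, -2.17 for Glycam1, -1.51 for Cdh5 and -1.21 for Il7. Genes of fatty acid oxidation, respiration and glycolysis gave -2.47 for Acaa2, -2.37 for Echs1, -1.65 for Sdhb, -1.62 for Ldha and -0.82 for Pdk1. For T cell genes it was -2.28 for Cd3g, -2.04 for Cd4, -1.98 for Ctla4, -1.75 for Cd8a, -1.73 for Cd8b1, -1.69 for Bcl11b, -1.27 for Trat1 and -1.10 for Lef1. Immediate early and interferon genes gave -1.91 for Fos, -1.77 for Egr1 and -1.11 for Igtp. The change was higher in the node for the spleen-type genes 4.82 for Coch, 3.02 for Gdpd2, 2.03 for Tcf21 and 1.18 for Tlx1. It was higher too for red cell and platelet genes, at 4.94 for Ppbp, 3.65 for Alas2, 2.83 for Slc4a1, 1.68 for Tubb1 and 1.56 for Gp5. Among B and plasma cell genes it was 1.87 for Cr2, 1.81 for Jchain, 1.15 for Ms4a1 and 0.75 for Ebf1. The adjusted p ranged from 9.2e-07 for Ucp1 to 0.046 for Cd8a. 

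The oncogenic Vav1 spleen group, the largest here with 4 arrays, was also looked at for single arrays far from the others, over the 72 genes above or used in the tissue check. For 8 genes the gap to the nearest array, as a share of the group's range, was beyond Dixon's 95% critical value. Chance passes that value in about 1 in 20 groups. The count of 8 cannot be set against that rate. The genes of the tissue check, the Y-linked ones among them, were chosen after the data were seen, and genes on the same array are not independent. The array was replicate 3, of the animal named ONCO3, for 7 of them. It was the lowest for the Y-linked genes Kdm5d (share 0.987, at 4.97 against 7.04 to 7.07), Eif2s3y (0.957) and Uty (0.903). It was the highest for Gdpd2 (0.922, at 8.49 against 7.85 to 7.90), Ccl21a (0.866, at 10.1 against 8.73 to 8.91), Coch (0.847, at 10.0 against 8.91 to 9.08) and Lef1 (0.8294, at 7.46 against 7.08 to 7.15). Postn was lowest on replicate 2 (0.858, at 5.00 against 5.32 to 5.37).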

How the results depend on the processing

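The count of 2500 changed genes ranged from 1040 to 4650 on leaving out each array in turn, and that of 1077 interaction genes from 384 to 4201. Array weights, which gave both oncogenic Vav1 node arrays 0.269 and the GFP node arrays 2.01, left 1264 changed genes, and the node arrays alone, with 2 residual degrees of freedom, left 433, all among the 2500. Without both arrays named ONCO3, an alternative chosen after seeing the data that leaves 1 oncogenic Vav1 node array assumed to vary like the other groups, the interaction genes came to 2726. The replicate block left 1535 changed and 403 interaction genes; the replicate numbers carry different animals and same-numbered arrays deviated at a correlation of -0.06, so they were not read as pairs. No filter, a 60th percentile filter, quantile normalization, centring on the median, no variance trend, the mean of probe sets, a 1.5-fold threshold and the intronic controls as covariate gave between 2189 and 3152 changed genes. Of 168 genes followed by name, 136 were called, and 94 of them kept their call and direction on leaving out each array and 68 under each other alternative. Signs turned with a call for Ccl5, at 0.74 without oncogenic Vav1 node replicate 2 and without both ONCO3 arrays and at -0.77 without replicate 1 (main value -0.02), and for Ciita, at 0.73 without replicate 2 and -0.68 without replicate 1 (main value 0.02). Values near background limit the size of a change, and 2 arrays per group limit every comparison.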
